A study of Mus musculus with 6 samples.

Results

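The cholinergic and motor neuron genes Chat, Slc5a7, Slc18a3, Isl1, Mnx1, Ache and Uts2b, were followed in the cervical spinal cord of mice with and without allergic contact dermatitis (ACD). They were picked by symbol and not by their values, and are 7 of the 54532 genes in the deposited tables. All 7 were among the 21369 genes that were tested, those whose mean reached 0.1 FPKM (fragments per kilobase of exon, scaled by library size). Total RNA was sequenced from 3 control and 3 ACD mice of the C57BL/6 strain, with no genetic change named in the labels. The contact allergen squaric acid dibutylester (SADBE) was used to induce ACD. Per the labels' protocols, the abdomen was first painted with 20 µl of 1% SADBE in acetone on 3 days. The nape of ACD mice was painted with the same dose on 3 further days after a 5-day interval, and that of controls with acetone only. Whether controls also received SADBE on the abdomen is not clear from the labels, which likewise give no sex, age, day of dissection or batch. A difference in handling between the groups therefore cannot be told apart from the treatment.

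As background, choline acetyltransferase (Chat) makes acetylcholine, the vesicular transporter Slc18a3 loads it into synaptic vesicles, and acetylcholinesterase (Ache) splits it after release. The high-affinity transporter Slc5a7 then takes the choline back into the terminal. In the cord the main cholinergic cells are the motor neurons of the ventral horn, beside smaller sets of cholinergic interneurons. Isl1 and Mnx1 (also called Hb9) are homeodomain transcription factors that specify motor neurons, and Uts2b encodes urotensin 2B, a peptide related to urotensin 2.

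Chat and Slc18a3 share one locus, and with Slc5a7 they make up the synthesis, loading and uptake steps, so the 250 bases before each of these 3 RefSeq starts are shown. The sequences and starts are those of RefSeq on GRCm38.p6, the build of mm10, written 5′ to 3′ along the transcribed strand. Capitals mark each CG dinucleotide, a C followed by a G, the site at which mammalian DNA is mainly methylated. The Chat window lies at chr14:32465910-32466159 (minus strand), the Slc18a3 window at chr14:32464851-32465100 (minus strand) and the Slc5a7 window at chr17:54299035-54299284 (minus strand).
Chat: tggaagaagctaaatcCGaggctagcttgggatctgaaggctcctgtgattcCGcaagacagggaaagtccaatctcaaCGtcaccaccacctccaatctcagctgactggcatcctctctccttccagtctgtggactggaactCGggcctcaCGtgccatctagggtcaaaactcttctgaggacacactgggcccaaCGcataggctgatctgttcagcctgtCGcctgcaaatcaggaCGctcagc
Slc18a3: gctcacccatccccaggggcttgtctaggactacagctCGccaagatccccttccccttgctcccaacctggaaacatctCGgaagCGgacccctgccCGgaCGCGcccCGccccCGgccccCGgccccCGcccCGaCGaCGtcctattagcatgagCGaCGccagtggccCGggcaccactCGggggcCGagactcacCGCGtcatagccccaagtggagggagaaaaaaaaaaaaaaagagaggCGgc
Slc5a7: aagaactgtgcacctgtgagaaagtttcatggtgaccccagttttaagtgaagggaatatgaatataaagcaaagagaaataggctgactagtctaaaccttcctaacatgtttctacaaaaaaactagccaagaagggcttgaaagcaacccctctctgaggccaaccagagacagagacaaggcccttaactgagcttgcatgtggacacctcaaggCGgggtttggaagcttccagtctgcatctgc
The 3 windows differed in composition. The Chat window holds 8 CG at a GC content of 54.8%, close to the median of 6 CG and 52.4% over all 32544 RefSeq start windows of this length. The Slc18a3 window holds 21 CG at 66.0% GC, and 16.5% of all windows hold at least as many CG. The Slc5a7 window holds 1 CG at 45.6% GC, a number that 92.2% of all windows reach or exceed. No methylation or binding was measured here, so these letters describe the starts only.

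In the GENCODE M21 annotation (GRCm38), Chat spans chr14:32408203-32465989 on the minus strand. This start lies 80 bases upstream of the RefSeq start, so the last 80 bases of the Chat window shown fall inside the GENCODE gene. Slc18a3, a gene of a single transcript at chr14:32462438-32464850 on the same strand, lies inside it, and its start is 1139 bases downstream of the GENCODE Chat start. The exons of the pair share 0 bases. The Slc18a3 exon, at 1.139 to 3.551 kb from the Chat start, lies between Chat exons that end at 0.182 kb and begin at 3.947 kb. Reads of unspliced Chat RNA from that stretch would therefore count as Slc18a3, and their share was not tested. The antisense RNA Gm2990 (chr14:32465042-32483548, plus strand), begins 192 bases before the Slc18a3 start and runs out across the Chat start. Its exons share 0 bases with those of Chat. The other members lie elsewhere: Slc5a7 at chr17:54273590-54299034 (minus strand), Isl1 at chr13:116298281-116309689 (minus strand), Mnx1 at chr5:29473034-29478470 (minus strand), Ache at chr5:137287519-137294466 (plus strand) and Uts2b at chr16:27353322-27370239 (minus strand). Of the rest, only Ache overlaps annotated neighbours: 98 of its exon bases lie under Gm42456 on the opposite strand, listed at a mean of 0.257 FPKM, and the microRNA gene Mir8116 lies within it.

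**Figure D1:**
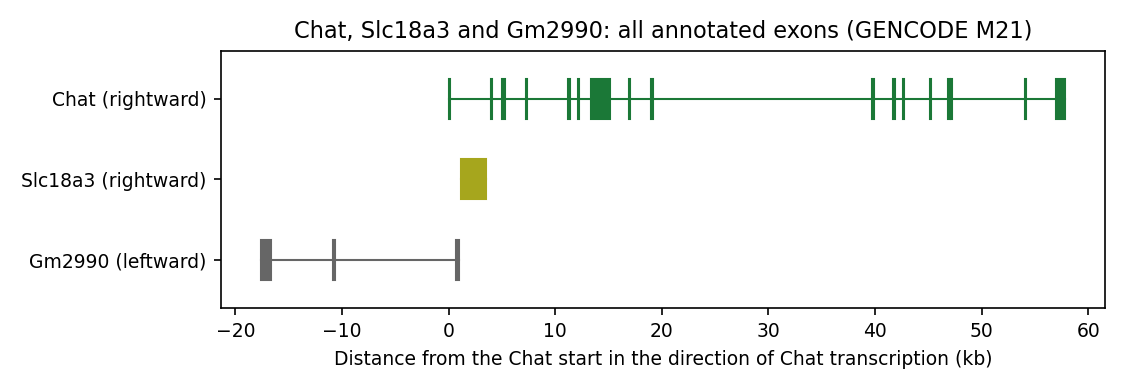
Annotated exons of Chat, Slc18a3 and the antisense RNA Gm2990, with the distance from the Chat start in kb, in the direction of Chat transcription, on the x axis. Boxes are exons of all transcripts and lines the gene spans; Slc18a3 sits inside the first part of Chat, 1139 bases from its start.

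The libraries were close in depth. The library sizes by which the FPKM values were scaled, worked out from the values, were 16916600 to 18583992 in the controls and 17346315 to 20245576 in ACD. Reads recovered over all genes summed to 16514190 to 18912905 and 18522679 to 21485134, so the scaling sizes are not these sums. Correlations of log2 expression between libraries were 0.947 to 0.955 among controls, 0.972 to 0.974 among ACD libraries and 0.944 to 0.956 between the groups. Over all tested genes, 386 were higher and 541 lower in ACD (limma, Benjamini-Hochberg adjusted p under 0.05), with a median log2 difference of -0.01. Higher genes were 41.6% of the calls, against 22.8% with TPM scaling and 14.1% with centring on pan-neuronal genes. The count fell to 181 with the replicate number as a block and ranged from 192 to 736 when a library was left out. A sum of 5 Schwann cell genes stood at 7.55 to 14.9 FPKM in controls and 18.6 to 25.8 in ACD. A sum of 4 haemoglobin genes stood at 98.1 to 384 and 475 to 763 FPKM. A sum of 11 of 12 skeletal muscle genes, without Pvalb, which neurons also express, stood at 5.31 to 33.1 and 2.43 to 3.54 FPKM, highest in control 2. With Pvalb, which had a log2 difference of 0.30 (limma adjusted p = 0.159), the sums were 105 to 155 and 121 to 142 FPKM. The part of these other cell types in the differences described here was not tested.

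All 7 genes were detected in every control cord, over a wide range of levels per length. Ache was the most abundant at 37.7 ± 5.60 FPKM (SD, n = 3), above 94.5% of tested genes. Slc5a7 (23.2 ± 5.41 FPKM) and Slc18a3 (21.9 ± 4.62 FPKM) followed, and their control values overlapped. Chat stood at 6.22 ± 1.54 FPKM, 3.52 times below Slc18a3 in the mean. Uts2b overlapped Chat at 5.46 ± 1.68 FPKM. Both transcription factors were low: Mnx1 at 1.65 ± 0.356 FPKM and Isl1 at 0.606 ± 0.0724 FPKM, the latter above 27.8% of tested genes. Apart from the overlapping pairs, neighbours in this order did not share values in the 3 control libraries. Dividing by the longest coding transcript instead of all annotated exons left the order the same but raised Chat to 10.2 ± 2.54 and Ache to 79.7 ± 11.8. Reads per library averaged 3386 for Ache and 2247 for Slc5a7, against 85.2 for Uts2b, 64.5 for Mnx1 and 39.7 for Isl1. The spread between controls did not follow this order. The SD was 14.9% of the mean for Ache, 23.3% for Slc5a7, 30.8% for Uts2b, 21.5% for Mnx1 and 11.9% for Isl1.

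**Figure D2:**
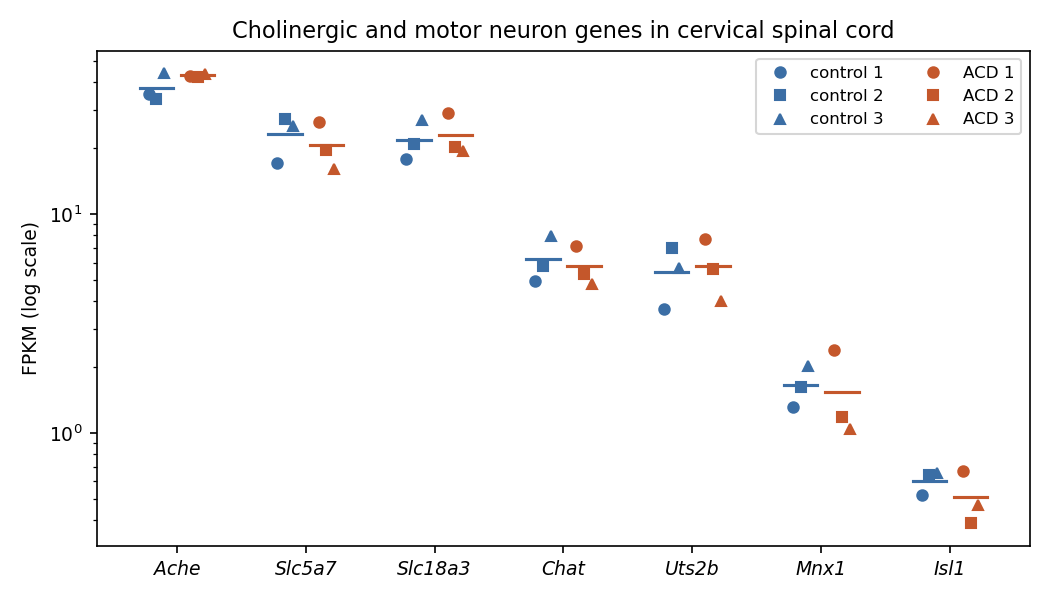
FPKM on a log axis for the 7 genes; each point is 1 library and each symbol shape a replicate number, with control and ACD side by side. The control and ACD points overlap for every gene, and levels run from Ache, at a control mean of 37.7, to Isl1, at 0.606.

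None of the 7 genes passed the test between ACD and control (limma on log2(FPKM + 0.1), adjusted over the 21369 genes), where 4.34% of all tested genes did (1.81% higher and 2.53% lower in ACD). None had an unadjusted p under 0.05 either, beside 22.3% of all tested genes. The groups overlapped for each of them, while 28.6% of tested genes had groups that did not overlap. Their median log2 difference was -0.10, beside -0.01 over all tested genes. For 14 pan-neuronal genes the median was 0.14, with 13 above 0 and 0 called. In bulk tissue, fewer cells of a type and less RNA per cell cannot be told apart, so a level here is that of the whole cord.

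Chat, the synthesising enzyme, read 4.93, 5.81 and 7.93 FPKM in controls 1 to 3 and 7.17, 5.34 and 4.81 FPKM in ACD 1 to 3. Control 3 and ACD 1 were the highest libraries and control 1 and ACD 3 the lowest, so that the groups covered nearly the same range. The log2 difference was -0.10 (SE 0.20, 95% interval -0.58 to 0.38, limma adjusted p = 0.813). As a ratio of ACD to control, this interval runs from 0.668 to 1.30.

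Slc18a3, the vesicular transporter, read 17.9, 20.98 and 27.0 FPKM in controls and 29.1, 20.3 and 19.3 FPKM in ACD. The same 2 libraries, control 3 and ACD 1, were the highest. Its log2 difference was 0.06 (SE 0.20, 95% interval -0.41 to 0.53, limma adjusted p = 0.887). Slc5a7, the choline transporter, read 17.1, 27.3 and 25.3 FPKM in controls and 26.5, 19.7 and 16.1 FPKM in ACD. Here control 2 joined the high libraries, and control 1 and ACD 3 were again the lowest. The log2 difference was -0.16 (SE 0.23, 95% interval -0.71 to 0.38, limma adjusted p = 0.719). The antisense RNA Gm2990 at the Chat start read 2.48, 2.74 and 3.15 FPKM in controls and 3.02, 3.21 and 2.02 FPKM in ACD, with a log2 difference of -0.04 (limma adjusted p = 0.916). Whether the counting used strand is not given in the sources used here.

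Ache, the degrading enzyme, was the member nearest to a difference. It read 35.4, 33.6 and 44.1 FPKM in controls and 42.8, 42.6 and 43.9 FPKM in ACD. The 3 ACD cords lay within a narrow band above controls 1 and 2, and control 3 was the highest of all 6. The log2 difference was 0.20 (SE 0.10, 95% interval -0.04 to 0.45, limma adjusted p = 0.304). Without control 3 it was 0.32 with a limma adjusted p of 0.0454, so that library decides the call.

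Of the transcription factors, Mnx1 had the widest interval of the 7 genes. Mnx1 read 1.31, 1.63 and 2.02 FPKM in controls and 2.38, 1.19 and 1.04 FPKM in ACD. ACD 1 held the highest value and the other ACD libraries the lowest values, on either side of all controls. Its log2 difference was -0.17 (SE 0.31, 95% interval -0.89 to 0.56, limma adjusted p = 0.788). Isl1 read 0.523, 0.639 and 0.655 FPKM in controls and 0.670, 0.387 and 0.469 FPKM in ACD, again with ACD 1 on top and the other ACD libraries at the bottom. At 31 to 47 reads per library, its log2 difference of -0.23 (SE 0.24, 95% interval -0.79 to 0.32, limma adjusted p = 0.602) rests on few reads.

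Uts2b, the peptide gene, read 3.68, 7.02 and 5.66 FPKM in controls and 7.73, 5.62 and 3.99 FPKM in ACD. As with Slc5a7, control 1 and ACD 3 were the lowest. The log2 difference was 0.08 (SE 0.30, 95% interval -0.62 to 0.78, limma adjusted p = 0.90).

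**Figure D3:**
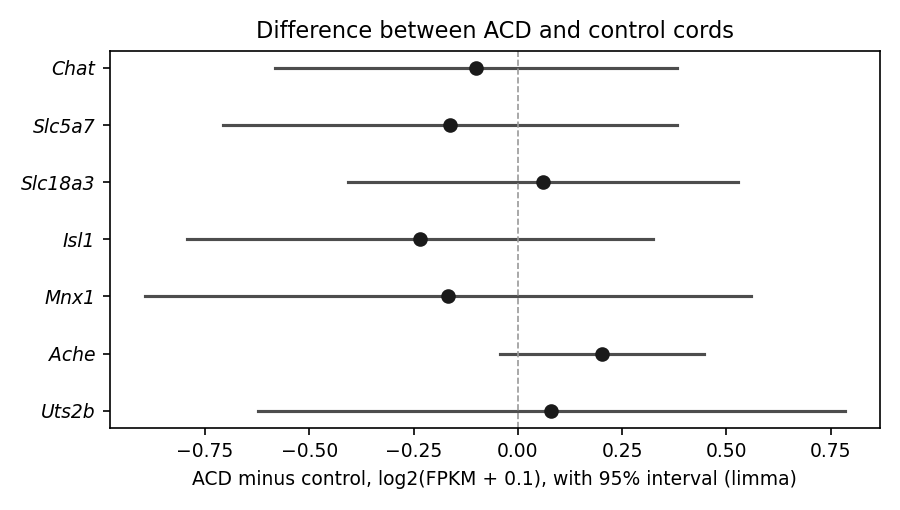
Difference between ACD and control in log2(FPKM + 0.1) for each of the 7 genes on the x axis, with points for the limma estimate and bars for its 95% interval. All 7 intervals include 0, and that of Ache (-0.04 to 0.45) is the narrowest.

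The spread between mice of one group was wide for most of these genes. The within-group SD on the log2 scale was 0.32 for Chat, 0.36 for Slc5a7 and 0.31 for Slc18a3. Among genes with 0.5 to 2 times the same number of reads, 97.4%, 99.3% and 98.2% respectively had a smaller spread. Uts2b (0.47) and Mnx1 (0.47) spread more widely, with 94.2% and 92.9% of genes of like reads below them. Ache (0.15) was steadier than these, but 80.6% of genes of like reads still had a smaller spread. Isl1 (0.26) was near the middle of genes of its depth, with 46.7% below it.

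Several members were high or low in the same libraries. The mean of Chat, Slc5a7 and Slc18a3, each centred on its own mean over the 6 libraries, stood at -0.30, 0.08 and 0.31 (log2) in controls 1 to 3 and at 0.33, -0.13 and -0.30 in ACD 1 to 3. Each group thus held a high and a low library. Chat and Slc18a3 had a Pearson r of 0.94 over the 6 libraries (exact permutation p = 0.0125, 2-sided) and a Spearman rho of 0.89 (exact permutation p = 0.0333). After leaving out the 2 libraries farthest from the Chat median r was 0.81, and for deviations from the group means it was 0.99. Slc5a7 and Uts2b had an r of 0.92 (exact permutation p = 0.00972) and a rho of 0.89, and r was 0.69 without the 2 libraries farthest from the Slc5a7 median. Mnx1 had an r of 0.91 with Chat and 0.90 with Slc18a3, and the latter fell to 0.35 without the 2 libraries farthest from the Slc18a3 median, so it rests on them. Over all 6 libraries, Slc5a7 was less close to the other 2 genes of the mean. Its r was 0.82 with Chat (exact permutation p = 0.0667) and 0.76 with Slc18a3 (exact permutation p = 0.0903). With Chat it was 0.985 without the 2 libraries farthest from the Chat median. With Slc18a3 it was 0.51 without the 2 libraries farthest from the Slc5a7 median. Of the 21 pairs, 19 had a positive r, but none passed after adjustment over the 21 pairs: the smallest adjusted p was 0.102 for Pearson and 0.140 for Spearman (exact permutation tests). Ache stood apart over the 6 libraries, with r between -0.19 and 0.48 against the other 6. For deviations from the group means, its r was 0.61 with Chat and 0.53 with Slc18a3, and -0.05 to 0.29 with the rest.

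**Figure D4:**
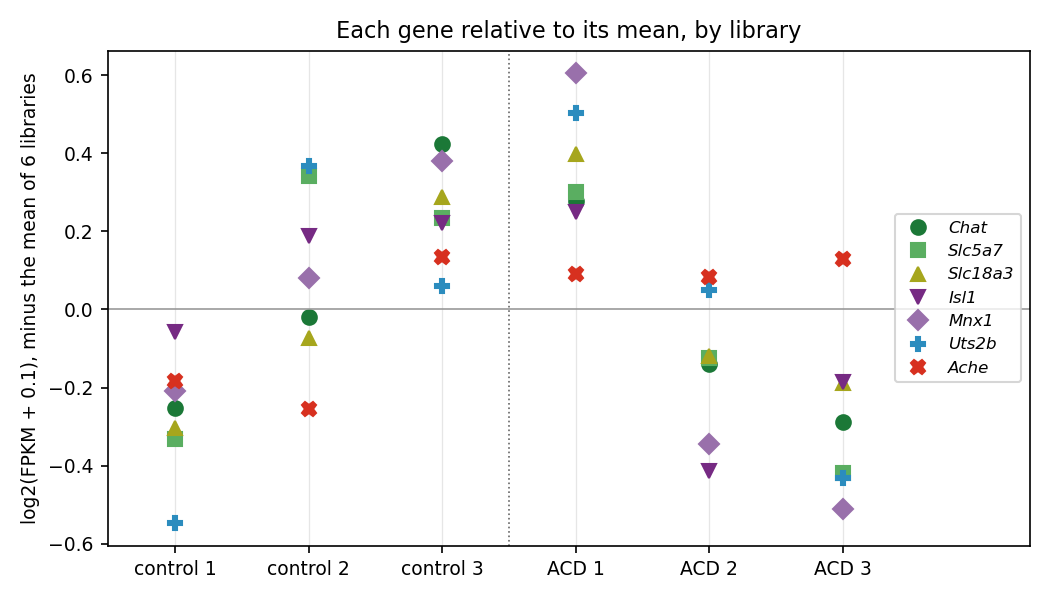
Each gene's log2(FPKM + 0.1) minus its mean over the 6 libraries, on the y axis, for control 1 to 3 and ACD 1 to 3; each symbol is a gene. Chat, Slc5a7 and Slc18a3 are low together in control 1 and ACD 3 and high together in control 3 and ACD 1, where their mean runs from -0.30 to 0.33.

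The ratio of Chat to Slc18a3, formed within each library, varied less than either gene. It was 0.276, 0.277 and 0.294 in controls and 0.246, 0.262 and 0.249 in ACD, so the groups did not overlap. The counting error of a single ratio was 4.93% to 6.26%. The exact 2-sided permutation p was 0.1, the smallest that 3 against 3 libraries allow, and 0.764 after adjustment over the 21 ratios between the 7 genes. Of those 21, 2 did not overlap, the other being Slc18a3 to Isl1. The ratios were computed after the values had been seen.

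Genes that vary with the 3 cholinergic genes were sought among the 13650 genes whose mean reached 1 FPKM. Among the 5 most alike by Pearson r over the 6 libraries were Pcdh9 (0.98), a protocadherin, Fndc4 (0.98), Gm10145 (0.98), a processed pseudogene, and Hmbox1 (0.98), a homeobox gene. With 6 libraries and 13650 candidates such values are a description only, and their reads share library and depth scaling. Mnx1, which is not in the mean, ranked 39 with an r of 0.94. Uts2b ranked 236 with 0.83, and Ache ranked 4160 with 0.23.

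Listed motor neuron markers, set apart from the 7 genes, lay toward high likeness. Over 23 of 25 that reached 1 FPKM the median r was 0.70, beside 0.01 over all 13650 genes, and 6 of 23 (26.1%) had an r of at least 0.8, beside 2.42% of all genes. With values scaled to a common sum the median was 0.69 and 7 of 23 reached it. The 6 were chosen after their values were seen: Fgf1 (0.97), Vipr2 (0.93), Prph (0.88), Chodl (0.87), Nefm (0.84) and Nefh (0.82). In the same list Prkcd (-0.47), Hcrtr2 (-0.31) and Npas1 (-0.13) had a negative r. Fgf1, a growth factor, read 67.9, 83.2 and 90.9 FPKM in controls and 91.9, 79.4 and 72.2 FPKM in ACD. Control 3 and ACD 1 were its highest libraries and control 1 and ACD 3 its lowest, as for Chat. Of 12 listed motor neuron transcription factors and related genes with an r, 3 reached 0.8. Chosen in the same way, they were Esrrg (0.94), an orphan nuclear receptor of gamma motor neurons, Esrrb (0.83) and Lhx4 (0.80). The median of the 12 was 0.54, and Aldh1a2 (-0.86), which encodes an enzyme, and the cofactor Ldb1 (-0.61) ran opposite. The 2 muscarinic receptors with an r were split, Chrm2 at 0.89 and Chrm3 at -0.68. The 11 nicotinic chaperones and modulators with an r ranged from Lypd6 (0.94) to Lypd1 (-0.73) and Ly6h (-0.95), with a median of 0.16. Pan-neuronal genes had a median r of 0.35 with none of 14 at 0.8, and 5 excitatory and inhibitory neuron genes one of -0.49. Scaled to a common sum, the pan-neuronal median was 0.28 and 1 of 14 reached 0.8, beside 2.10% of all genes. The excitatory vesicular transporter Slc17a6 (-0.85) and the transcription factor Pou4f1 (-0.96) ran opposite. Of 11 genes listed for primary sensory neurons, Pou4f1 was 1 of only 2 that reached 1 FPKM. Of 5 erythroid genes with an r, Hba-a2 had 0.83 and the others had 0.19 to 0.44. The part of blood in this pattern was not tested.

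**Figure D5:**
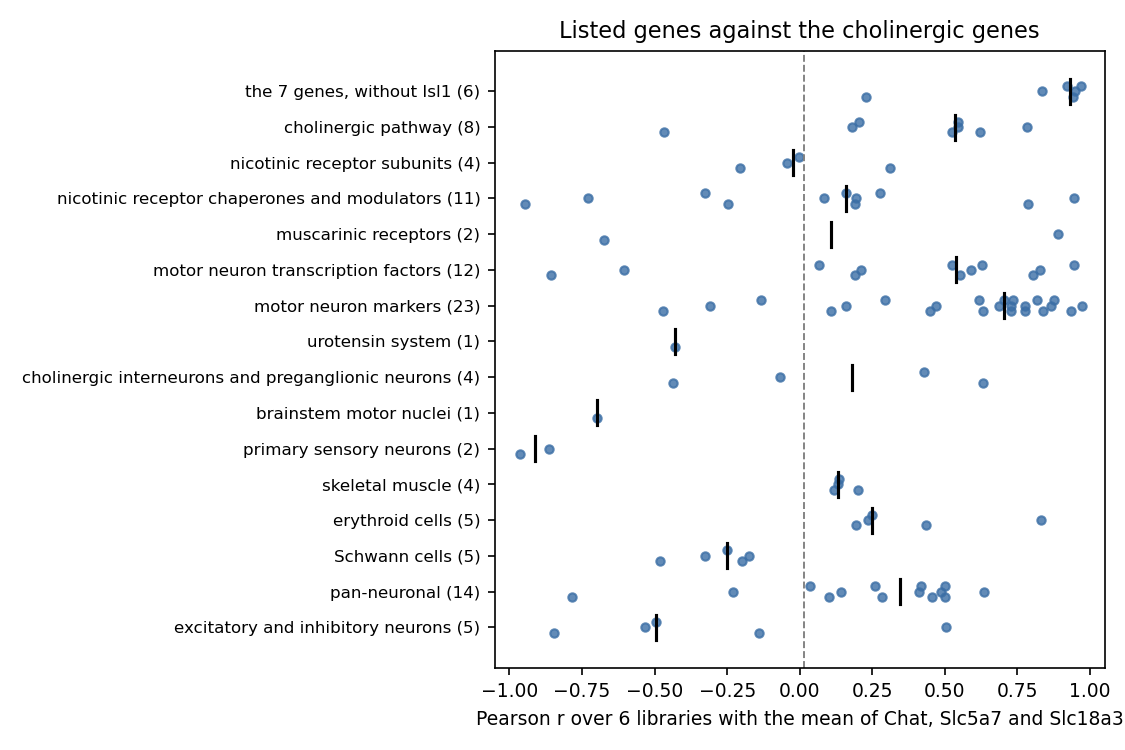
Pearson r over the 6 libraries between each listed gene with a mean of at least 1 FPKM (points, number in brackets) and the mean of Chat, Slc5a7 and Slc18a3, on the x axis, by list; bars are list medians and the dashed line the median of all 13650 genes, 0.01. Chat, Slc5a7 and Slc18a3 form the mean themselves and stand at the right by construction; the motor neuron markers have a median of 0.70.

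None of the motor neuron lists held a gene that passed the ACD comparison. Of 25 motor neuron markers, all tested, 0 were higher and 0 lower, with a median log2 difference of 0.11, and the smallest p belonged to Tns1, a focal adhesion protein (log2 difference -0.26, limma adjusted p = 0.234). Of 13 listed motor neuron transcription factors and related genes, 0 were higher and 0 lower, with a median of -0.03. Lmo4, a LIM-only protein, had the smallest p there (0.17, limma adjusted p = 0.203). Among 8 genes of cholinergic interneurons and preganglionic neurons 0 passed, and the smallest p was that of Fbn2, the extracellular matrix protein fibrillin 2. Fbn2 read 0.739, 0.750 and 0.677 FPKM in controls and 0.424, 0.448 and 0.402 FPKM in ACD, without overlap, at a log2 difference of -0.65 (limma adjusted p = 0.0930). Uts2, the gene of the peptide to which Uts2b is related, had a difference of -0.01 (limma adjusted p = 0.979).

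The rest of the acetylcholine pathway likewise gave no call at the threshold. Of 16 listed genes of choline supply and acetylcholine breakdown, 13 were tested, and 0 were higher and 0 lower (median -0.03). The choline transporter-like protein Slc44a1 had the smallest p. It read 32.7, 37.6 and 35.1 FPKM in controls and 45.0, 41.2 and 42.4 FPKM in ACD, with all ACD libraries above all controls and a log2 difference of 0.29 (limma adjusted p = 0.0784). Chka, a choline kinase, was close behind in the other direction and is named after its values were seen. It read 4.99, 4.45 and 5.28 FPKM in controls and 3.84, 3.99 and 3.68 FPKM in ACD, also without overlap, with a log2 difference of -0.34 (limma adjusted p = 0.0795). Of 16 nicotinic receptor subunits 10 were tested and 0 passed (median -0.03), and Chrna9, Chrna10, Chrnd and Chrng were listed at 0 in all 6 libraries. Chrna7, the subunit of homomeric nicotinic receptors, had a difference of 0.23 (limma adjusted p = 0.288). Of 5 muscarinic receptors 0 passed, Chrm3 having the smallest p (0.22, limma adjusted p = 0.523).

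The nicotinic chaperones and modulators were the only one of these lists with calls, 1 higher and 1 lower among 12 tested. Agrn encodes agrin, which clusters acetylcholine receptors at the neuromuscular junction. It read 17.3, 15.1 and 18.1 FPKM in controls and 11.7, 11.1 and 11.2 FPKM in ACD, with every ACD library below every control. It fell by 0.57 on the log2 scale (SE 0.08, limma adjusted p = 0.0193). Ly6e, a membrane protein of the Ly6 family, read 18.5, 18.7 and 21.3 FPKM in controls and 27.0, 25.7 and 26.4 FPKM in ACD. It rose by 0.44 (SE 0.07, limma adjusted p = 0.0274), again without overlap. Neither call was firm: that of Agrn ended without control 1 or any single ACD library (limma adjusted p 0.0592 to 0.0772), and that of Ly6e without any library but control 3 (0.0598 to 0.102). Both also ended with the replicate block (0.0546 and 0.0747) and without trend and robust settings (0.0578 and 0.0773). That of Ly6e ended with TPM scaling, quantile normalization and pan-neuronal centring as well (0.0599 to 0.0903). Over all 160 distinct listed genes, 140 were tested and 1.43% called, beside 4.34% of all genes.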

How the data were processed

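Total RNA of cervical spinal cord was sequenced in 3 control and 3 ACD mice, called biological replicates in the labels. The authors deposited 1 table of FPKM values per library, a unit recognised from the values themselves. DESeq2 1.16.1, featureCounts 1.5.0-p3, HISAT2 2.0.5 and mm10 appear, without their roles, per the submitters' processing notes. For the annotation, kit and strand, nothing was given in the sources used here. Of the positive values, 96.9% lay within 0.05 reads of a whole multiple of 1 read per exon length. This step, read from low values, gave the scaling library sizes, the reads per gene and an alternative fit.

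Differences were fitted with limma 3.58.1 in R 4.3.3 (trend and robust) on log2(FPKM + 0.1) for genes whose mean reached 0.1 FPKM, 2-sided, with Benjamini-Hochberg adjustment over all genes tested and a threshold of 0.05. The scale understates changes of low genes. The code was tested on simulated data. Ratios and pairs of genes used exact permutation over libraries.

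The 7 genes and the gene lists were chosen with earlier results of these data known. The rule named the 7 genes, up to 4 called genes of each list or else the one with the smallest p, the 5 most alike genes and overlapping neighbours. Ratios, the r of 0.8, spread percentiles, transcript-length levels, CG windows and pan-neuronal centring were added after values were seen. Other lists gave 0 calls: in skeletal muscle Tnnt3 (-3.03), erythroid cells Hbb-bs (1.72), primary sensory neurons Avil (0.64), brainstem motor nuclei Phox2a (0.67), pan-neuronal Uchl1 (0.43) and excitatory and inhibitory neurons Slc32a1 (0.44) had the smallest p (log2 differences). A Schwann cell list also gave 0 calls, with a median of 0.86. Single values of 2 genes that the rule named are not reported here. Alternatives changed the pseudocount, filter, scaling, model and libraries.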

Additional observations from a re-analysis of the deposited data

How the results depend on the processing

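Of 118 alternative values of the 7 differences, 117 stayed short of the threshold. The exception, Ache at 0.32 without control 3, made the number of the 7 genes past it 1 there and 0 in all other settings. Directions of the small differences did not hold. With TPM scaling, quantile normalization, a removed length and GC trend and pan-neuronal centring (added after seeing the data), Slc18a3 read -0.0365, -0.0391, -0.0120 and -0.0905. Uts2b read -0.0155 with TPM scaling and -0.0709 with pan-neuronal centring, and Isl1 0.0314 with quantile normalization. Leaving out 1 library gave -0.26 to 0.0869 for Chat, -0.37 to 0.00578 for Slc5a7, -0.12 to 0.22 for Slc18a3, -0.42 to -0.09 for Isl1, -0.51 to 0.0457 for Mnx1, 0.13 to 0.32 for Ache and -0.17 to 0.32 for Uts2b. Uts2 read 0.15 without the length and GC trend, and -0.20 to 0.13 without 1 library. Isl1 has no value with a filter at 1 FPKM. The causes were not tested.

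Calls over all genes numbered 556 without a filter, 568 with quantile normalization, 1685 with voom on recovered reads and 420 without trend and robust settings, against 927, and 192 to 736 without 1 library. TPM scaling shifted the median of all genes to -0.10 and the share of higher calls from 41.6% to 22.8%. Pan-neuronal centring gave -0.16 and 14.1%, no trend and robust settings 22.9%, a filter at 1 FPKM 53.1%, the length and GC correction 52.4%. Calls among listed genes, 2 in the main analysis, were 1 with TPM scaling, 1 with quantile normalization, 8 with voom, 1 without trend and robust settings and 0 to 8 without 1 library. With the replicate number as a block, 181 genes passed over all and 0 of the listed ones. The labels do not say whether the numbers pair the mice. Deviations of same-numbered libraries correlated at -0.03, 0.01 and 0.00 over all genes, and none was closest to its own number. Such values cannot show whether single genes share a pairing or a batch.

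Correlations that changed sign all involved Ache. With TPM scaling Ache and Uts2b had -0.20. With pan-neuronal centring the value was -0.0910 with Chat, -0.15 with Mnx1 and -0.44 with Uts2b. It was 0.40 with Slc5a7 under the length and GC correction, and 0.26 with Isl1 and -0.12 with Uts2b under quantile normalization. Leaving out 1 library gave -0.48 to 0.42 with Slc5a7, -0.41 to 0.10 with Isl1, -0.14 to 0.38 with Mnx1 and -0.47 to 0.54 with Uts2b. Depth limits Isl1, at 31 to 47 reads per library.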
